A study of Mus musculus with 10 samples.

Results

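The mitochondrial solute carriers of the SLC25 family were followed in livers of tumour-bearing mice. Members were rows of the deposited gene table whose symbol is Slc25a followed by a number, pseudogene symbols left out, which gave 44 of 24972 genes. The family proteins sit mostly in the inner mitochondrial membrane and exchange metabolites between matrix and cytosol, since that membrane lets almost nothing through by itself. Each carrier is built from a repeated unit of membrane helices and has a narrow set of substrates, such as ADP, ATP, phosphate, citrate, malate, amino acids or cofactors. In liver these exchanges feed gluconeogenesis, fatty acid synthesis, the disposal of amino acid nitrogen and the oxidation of cytosolic NADH.

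RNA came from whole livers of wild-type mice that carried pancreatic tumours grown from clonal KPC lines, which derive from a mouse model of pancreatic ductal adenocarcinoma. The Tcell low group (n = 4 libraries) bore tumours of the line 6419c1, labelled as poor in T cells. The Tcell high group (n = 6) bore tumours of 6555c3, labelled as rich in T cells. Each group rests on 1 line, so line and T cell class cannot be told apart, and no liver without a tumour was analysed here. Age and sex are not used here. Whether the libraries of a group come from different animals is not in the labels, and the p-values describe variation among libraries, some of which may be technical. In bulk liver, fewer cells of a type and less RNA per cell cannot be told apart.

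Values are 3′ end counts that the authors scaled, called scaled counts here. Genes averaging 10 or more scaled counts were compared with limma's moderated test on log2(scaled count + 1), with Benjamini-Hochberg adjustment over all 11110 such genes and a threshold of 0.05. Log2 fold changes are Tcell low minus Tcell high, and SE is the standard error. Scaled totals were 7060777 to 8257373 in Tcell low and 7000659 to 7513620 in Tcell high libraries (exact permutation test, 2-sided p = 0.0333), and whole reads could not be recovered from the scaled values. The hepatocyte markers Alb, Apoa1, Ttr, Serpina1c, Apoc3 and Ahsg were present in every library, with a summed level of 484663 to 684276 scaled counts in Tcell low and 303081 to 628585 in Tcell high livers. Some libraries stood apart from their group. The haemoglobin gene Hbb-bs ran from 3465 to 9359 scaled counts in Tcell high 1, 3, 5 and 6, against 99.7 in Tcell high 2 and 16.2 in Tcell high 4, and from 118 to 215 in the Tcell low livers. Of the other erythroid markers Bpgm was likewise highest in Tcell high 1, 3, 5 and 6, and the globin genes Hba-a2 and Hbb-bt were not. Hba-a2 had 42109, 40896, 93823 and 68368 scaled counts in Tcell low 1, 2, 3 and 4, against 17454, 50406, 32670.1, 25604, 15330.5 and 20176 in Tcell high 1, 2, 3, 4, 5 and 6, so that Tcell high 2 was the highest of its group and Tcell high 5 the lowest. Hbb-bt had 1136 scaled counts in Tcell high 2, above Tcell high 1, 5 and 6 and below Tcell high 3. Mat1a, which encodes the liver enzyme for S-adenosylmethionine, had 50692, 147128, 135597 and 148749 scaled counts in Tcell low 1, 2, 3 and 4, against 45132 to 52314 in the 6 Tcell high livers (median 46016), so that Tcell low 1 lay with the Tcell high libraries.

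Of the 44 members, 33 had a mean high enough for the test and 11 did not. In Tcell low livers 4 of the 33 members fell, Slc25a23, Slc25a45, Slc25a10 and Slc25a21, and by limma 0 rose (5 were higher and 11 lower at an unadjusted p below 0.05). The 4 calls are 12.1% of the tested members, against 12.8% of all genes tested. At an unadjusted p below 0.05 by limma there were 16 of the 33 members and 3830 of all 11110 genes. Lower calls made up 7.39% of all genes (821) and higher calls 5.39% (599), a split that became 1068 and 421 with equal totals per library, which moved the median of all genes by -0.119. The share called among the members is near the background. The median log2 fold change was -0.18 over the 33 members, 16 positive and 17 negative, and 0.003 over all genes. The median size of the log2 fold change, without its sign, was 0.68 over the members and 0.50 over all genes. Among the tested members Slc25a17 was the 1 whose groups did not overlap (3.03%), with Tcell low below Tcell high, against 7.39% of all genes, 3.37% with Tcell low above and 4.02% with Tcell low below.

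**Figure D1:**
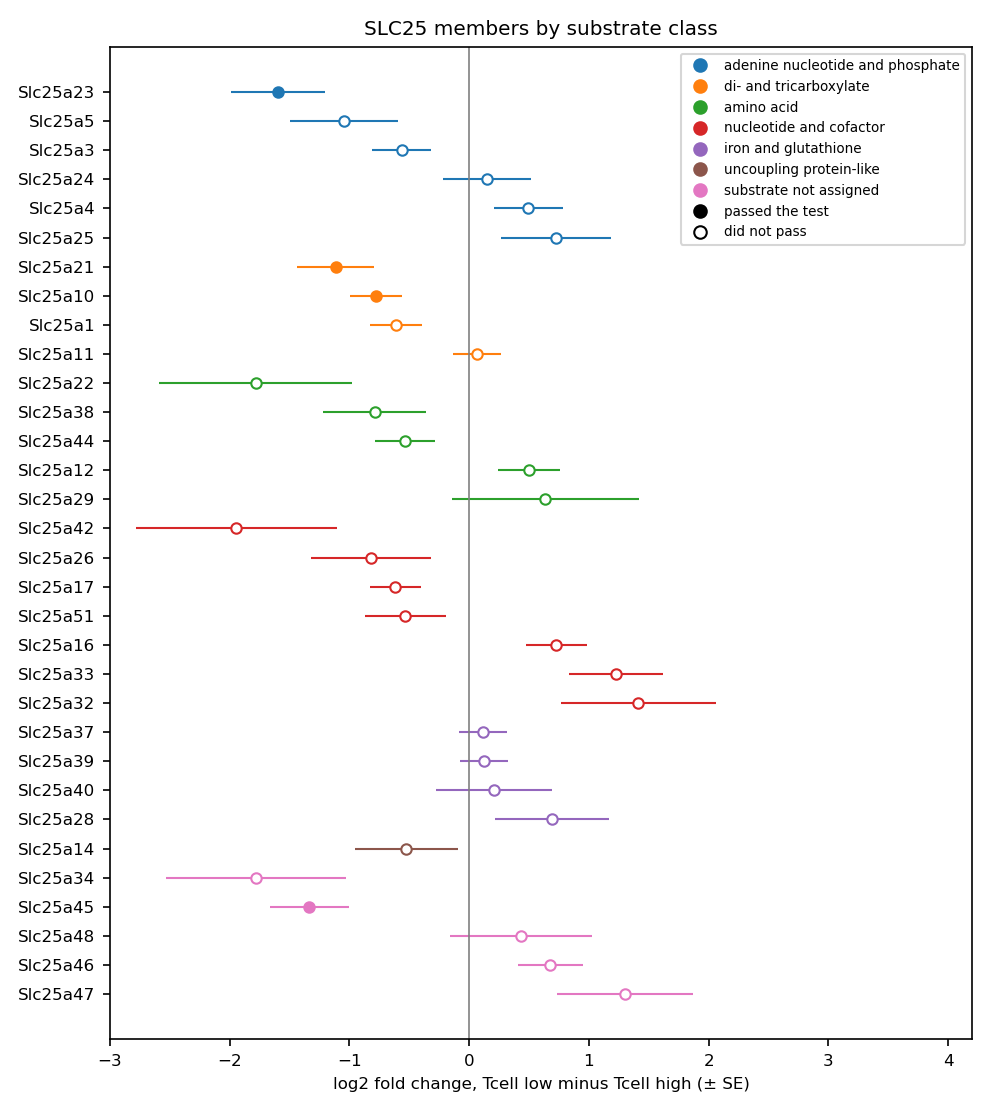
Log2 fold change, Tcell low minus Tcell high, for the tested SLC25 members named here, with bars of 1 SE, coloured by substrate class. Filled points passed the test (Slc25a23, Slc25a21, Slc25a10 and Slc25a45, all below 0), open points did not, and estimates run from -1.94 for Slc25a42 to 1.41 for Slc25a32.

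Carriers of adenine nucleotides and phosphate supply the matrix with ADP and phosphate for ATP synthesis and return ATP to the cytosol. Of 6 tested members 1 fell and 0 rose, with a class median of -0.21 on the log2 scale. Slc25a23, a calcium-regulated carrier that exchanges ATP-Mg for phosphate and so sets the size of the matrix nucleotide pool, was lower in Tcell low livers. It lies on chromosome 17, 57043711 to 57059863, reverse strand (mm10). It had 773, 189.7, 325 and 133 scaled counts in Tcell low 1, 2, 3 and 4, against 616 to 1087 in the 6 Tcell high livers (median 884). Tcell low 2, 3 and 4 lay below every Tcell high value, while Tcell low 1 lay within the Tcell high range. The means were 355 ± 290.0 scaled counts in Tcell low and 872 ± 174 in Tcell high livers (SD, n = 4 and 6), or -1.60 as log2 fold change (SE 0.39, adjusted p = 0.0261).

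The other tested ATP-Mg carriers did not pass. Slc25a25, a paralogue of Slc25a23, had 728, 1522, 486 and 2657 scaled counts in Tcell low 1, 2, 3 and 4, against 257 to 924 in the 6 Tcell high livers (median 762). All 6 Tcell high livers lay below Tcell low 2 and 4 and not below Tcell low 1 and 3 (log2 fold change 0.73, SE 0.46, adjusted p = 0.27). Slc25a24, another paralogue, gave 0.15 (SE 0.37). Slc25a41, the neighbour of Slc25a23 on chromosome 17 at a distance of 2056 bases, was listed at 0 in all 10 libraries.

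Slc25a3, which brings phosphate and copper into the matrix, had 1562, 783, 985 and 1504 scaled counts in Tcell low 1, 2, 3 and 4, against 1149.8 to 2108 in the 6 Tcell high livers (median 1901). Its groups overlapped and it did not pass (log2 fold change -0.57, SE 0.25, adjusted p = 0.129). For the ADP/ATP carriers the values differed in sign. Slc25a5, the ubiquitous form, had 194, 147, 200.04 and 212 scaled counts in Tcell low 1, 2, 3 and 4, against 640.1, 163, 469.9, 171, 1021 and 379 in Tcell high 1, 2, 3, 4, 5 and 6. Tcell high 1, 3, 5 and 6 stood above all Tcell low livers, while Tcell high 2 and 4 lay among them (log2 fold change -1.04, SE 0.45, adjusted p = 0.122). Reads of Slc25a5 may be mixed with those of its processed copies, since 18.4% of the 50-base words at its 3′ end occur in other genes. Slc25a4, the form of heart and muscle, gave 0.49 (SE 0.29, adjusted p = 0.239).

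Di- and tricarboxylate carriers link the citric acid cycle to gluconeogenesis, lipid synthesis and amino acid breakdown. All 4 members could be tested, of which 2 fell and 0 rose, with a class median of -0.70. Slc25a10, which exchanges malate or succinate for phosphate, fell in Tcell low livers. It lies on chromosome 11, 120491840 to 120499187, forward strand, and a predicted antisense gene overlaps it. It had 521, 324, 282 and 375 scaled counts in Tcell low 1, 2, 3 and 4, against 472 to 789 in the 6 Tcell high livers (median 627). Tcell low 1 lay above the lowest Tcell high library, and the other Tcell low livers lay below all of them. The means were 375 ± 104 scaled counts in Tcell low and 636 ± 114 in Tcell high livers (SD, n = 4 and 6), or -0.78 as log2 fold change (SE 0.22, adjusted p = 0.0379).

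Slc25a21 carries 2-oxoadipate, an intermediate of lysine and tryptophan breakdown, in exchange for 2-oxoglutarate, and it fell as well. It lies on chromosome 12, 56712634 to 57197472, reverse strand. It had 44.9, 16.3, 38.5 and 22.4 scaled counts in Tcell low 1, 2, 3 and 4, against 39.2 to 76.9 in the 6 Tcell high livers (median 67.7). Tcell low 1 was above the lowest Tcell high value, that of library 4, and Tcell low 2, 3 and 4 lay below all Tcell high livers. The means were 30.5 ± 13.4 scaled counts in Tcell low and 64 ± 14.4 in Tcell high livers (SD, n = 4 and 6), or -1.12 as log2 fold change (SE 0.33, adjusted p = 0.0435).

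Slc25a1, the citrate carrier that supplies acetyl units for fatty acid and sterol synthesis, had 849.7, 613, 899 and 453 scaled counts in Tcell low 1, 2, 3 and 4, against 864 to 1348 in the 6 Tcell high livers (median 1034). Tcell low 1, 2 and 4 lay below every Tcell high library, and Tcell low 3 lay above the lowest of them (log2 fold change -0.61, SE 0.22, adjusted p = 0.0765). Slc25a11, the oxoglutarate-malate carrier of the malate-aspartate shuttle, had 532, 865, 465 and 629 scaled counts in Tcell low 1, 2, 3 and 4, against 494 to 711 in the 6 Tcell high livers (median 581). Its values were interleaved between the groups (log2 fold change 0.06, SE 0.20, adjusted p = 0.842), and its sign turned to -0.06 with equal totals per library.

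**Figure D2:**
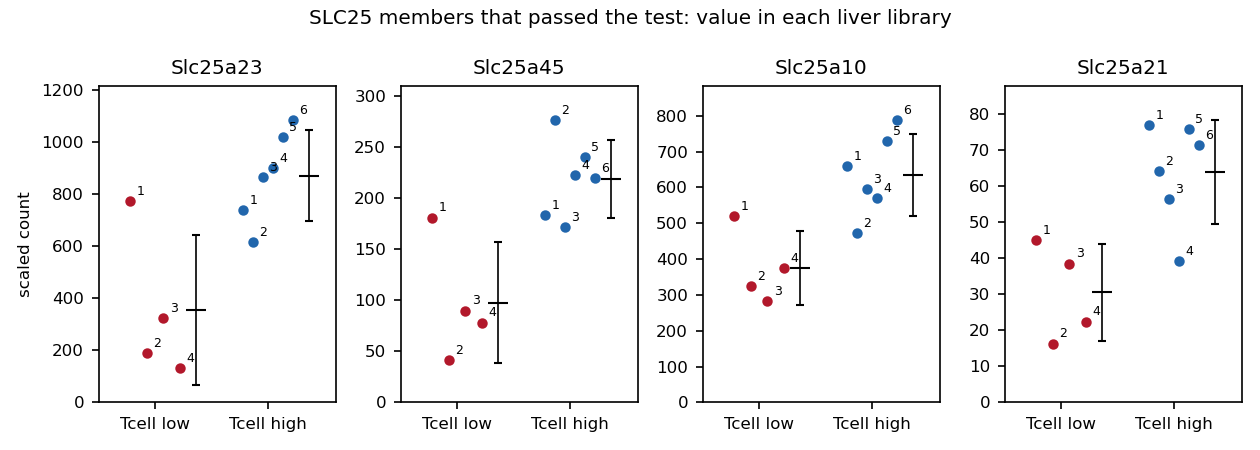
Scaled count of the 4 members that passed the test in each library, with Tcell low (red) left of Tcell high (blue), library numbers beside the points, and the mean ± SD as a bar. Tcell low 1 is the highest Tcell low library in every panel, at 773 for Slc25a23 and 44.9 for Slc25a21.

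In the class with no substrate assigned here, 1 of 5 tested members fell and 0 rose, with a median of 0.43. Slc25a45 fell in Tcell low livers. It lies on chromosome 19, 5877808 to 5885878, forward strand. It had 181, 41.1, 89.9 and 78 scaled counts in Tcell low 1, 2, 3 and 4, against 172 to 276 in the 6 Tcell high livers (median 221). Tcell low 1 lay above the lowest Tcell high value, and Tcell low 2, 3 and 4 lay below all of them. The means were 97.4 ± 59.3 scaled counts in Tcell low and 219 ± 38.1 in Tcell high livers (SD, n = 4 and 6), or -1.34 as log2 fold change (SE 0.33, adjusted p = 0.0267).

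Slc25a47, a carrier found mainly in liver, had 2196, 19139.9, 4539 and 26488 scaled counts in Tcell low 1, 2, 3 and 4, against 2290.1 to 4802 in the 6 Tcell high livers (median 3536). Tcell low 2 and 4 stood far above every other library, Tcell low 3 lay below the highest Tcell high value, and Tcell low 1 was the lowest of all 10 (log2 fold change 1.30, SE 0.57, adjusted p = 0.124). Summed over the 44 members, of which Slc25a47 gave the highest value in Tcell low 2 and 4, the family made up 0.329% ± 0.157 of the scaled total in Tcell low and 0.243% ± 0.0210 in Tcell high livers (SD, n = 4 and 6, p = 0.233, exact two-sided permutation test). Slc25a46, a protein of the outer membrane that acts in mitochondrial fusion and fission, had 335, 837, 579.9 and 552 scaled counts in Tcell low 1, 2, 3 and 4, against 261 to 541 in the 6 Tcell high livers (median 311). Tcell low 2, 3 and 4 were above all Tcell high livers and Tcell low 1 was among them (log2 fold change 0.68, SE 0.27, adjusted p = 0.102). Slc25a34 had 23.5, 13.4, 0 and 15.8 scaled counts in Tcell low 1, 2, 3 and 4, against 17.9 to 50.3 in the 6 Tcell high livers and a median of 28 (log2 fold change -1.78, SE 0.75, adjusted p = 0.117). It was listed at 0 in Tcell low 3, and Tcell low 1 lay within the Tcell high range. Without Tcell low 3 the log2 fold change of Slc25a34 was -0.74, and with a pseudocount of 5 it was -1.17. Slc25a48 gave 0.43 (SE 0.60).

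Sequences upstream of the 4 members that fell are shown because these members passed the test. They come from RefSeq (GRCm38.p6, the assembly named mm10) and run 5′ to 3′ on the gene's strand from 250 bases before to 50 bases after the annotated start. The table used here holds such a sequence for 33 of the 44 members, and the first listed start is shown. Capitals mark exact matches, on either strand, to CACGTG (an E-box), AGGTCA (a nuclear receptor half-site), CCAAT (the motif of NF-Y), GGGCGG (a GC box), TATAAA or TGACGTCA (a cyclic AMP response element), none of which contains another.
Slc25a23 (chr17:57059814-57060113, reverse strand): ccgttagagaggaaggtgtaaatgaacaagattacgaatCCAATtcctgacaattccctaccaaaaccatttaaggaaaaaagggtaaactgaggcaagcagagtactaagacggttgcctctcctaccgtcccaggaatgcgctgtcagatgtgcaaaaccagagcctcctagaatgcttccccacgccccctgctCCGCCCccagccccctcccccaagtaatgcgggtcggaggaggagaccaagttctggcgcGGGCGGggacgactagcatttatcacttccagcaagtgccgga
Slc25a10 (chr11:120491587-120491886, forward strand): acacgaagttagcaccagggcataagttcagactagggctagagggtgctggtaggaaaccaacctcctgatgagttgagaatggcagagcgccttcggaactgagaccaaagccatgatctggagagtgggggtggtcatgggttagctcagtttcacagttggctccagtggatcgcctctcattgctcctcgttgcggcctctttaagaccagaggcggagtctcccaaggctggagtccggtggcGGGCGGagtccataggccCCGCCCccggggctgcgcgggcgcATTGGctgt
Slc25a21 (chr12:57197423-57197722, reverse strand): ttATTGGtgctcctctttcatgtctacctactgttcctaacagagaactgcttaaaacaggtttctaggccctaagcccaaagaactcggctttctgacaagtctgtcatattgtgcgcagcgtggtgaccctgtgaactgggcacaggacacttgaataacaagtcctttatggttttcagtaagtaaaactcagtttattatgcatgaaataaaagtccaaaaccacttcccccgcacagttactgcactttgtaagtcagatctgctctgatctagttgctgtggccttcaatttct
Slc25a45 (chr19:5877572-5877871, forward strand): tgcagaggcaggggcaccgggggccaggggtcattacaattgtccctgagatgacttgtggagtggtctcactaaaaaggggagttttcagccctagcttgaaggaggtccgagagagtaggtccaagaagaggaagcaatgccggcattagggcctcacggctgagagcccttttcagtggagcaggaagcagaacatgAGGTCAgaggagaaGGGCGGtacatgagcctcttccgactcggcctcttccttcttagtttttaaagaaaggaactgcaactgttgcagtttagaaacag

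GGGCGG had 2 matches upstream of Slc25a23, 2 upstream of Slc25a10, 1 upstream of Slc25a45 and 0 upstream of Slc25a21. It occurs in 35.7% of 32851 such windows over all genes. CCAAT had 1 match each for Slc25a23, Slc25a10 and Slc25a21 and occurs in 37.4% of windows. AGGTCA was matched once, in the Slc25a45 window, and occurs in 16.3%. The windows of all 4 genes held 0 matches to CACGTG (7.15% of all windows), TATAAA (13.6%) and TGACGTCA (1.79%). GC content was 54.0% for Slc25a23, 59.7% for Slc25a10, 43.0% for Slc25a21 and 52.7% for Slc25a45, against a median of 52.7%. No letter pattern searched here was common to the 4 windows. For Slc25a23 and Slc25a21 2 starts each are listed, of which only the first was searched.

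Amino acid carriers did not pass the test in any of the 5 members tested, by limma (1 at an unadjusted p below 0.05), and their median was -0.53. Slc25a44, a carrier of branched-chain amino acids, had 461, 472, 326 and 578 scaled counts in Tcell low 1, 2, 3 and 4, against 453 to 890.5 in the 6 Tcell high livers and a median of 700.0 (log2 fold change -0.53, SE 0.25, adjusted p = 0.148). Tcell low 3 lay below all Tcell high livers and the others of its group within their range. Tcell high 1, 3, 5 and 6, at 662 to 890.5 scaled counts, lay above every Tcell low liver, while Tcell high 2 and 4 had 453 and 454. Against Tcell high 2 and 4 alone the log2 fold change of Slc25a44 was -0.0117, which restates these values. Slc25a12, which exports aspartate for glutamate in the malate-aspartate shuttle, had 111, 220.0, 112 and 202 scaled counts in Tcell low 1, 2, 3 and 4, against 86.1 to 137 in the 6 Tcell high livers (median 108). The highest values were those of Tcell low 2 and 4, and Tcell low 1 and 3 were within the Tcell high range (log2 fold change 0.50, SE 0.26, adjusted p = 0.186). The glutamate carrier gene Slc25a22 had 12.9, 17.2, 16.5 and 56.3 scaled counts in Tcell low 1, 2, 3 and 4, against 179, 15.1, 109, 15.4, 316 and 127 in Tcell high 1, 2, 3, 4, 5 and 6. Its high values were those of Tcell high 1, 3, 5 and 6, while Tcell high 2 and 4 were at the level of Tcell low 1, 2 and 3 (log2 fold change -1.78, SE 0.81, adjusted p = 0.136). Slc25a38, chosen after its values were seen, which moves glycine into the matrix for haem synthesis, had 46, 46.2, 18.4 and 40.9 scaled counts in Tcell low 1, 2, 3 and 4, against 66, 25.6, 62.5, 41.6, 115 and 114 in Tcell high 1, 2, 3, 4, 5 and 6 (log2 fold change -0.79, SE 0.43, adjusted p = 0.209). As for Slc25a22, Tcell high 1, 3, 5 and 6 lay above all other libraries.

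The carriers of nucleotides and cofactors had fold changes from -1.94 for Slc25a42 to 1.41 for Slc25a32. Of 8 tested members 0 passed by limma, and the median was -0.35. An unadjusted p below 0.05 was found for 5 of them, and for 3830 of all 11110 genes. Slc25a17, the carrier of coenzyme A, FAD and NAD in the peroxisomal membrane, had 140.0, 129, 146 and 90.7 scaled counts in Tcell low 1, 2, 3 and 4, against 164 to 257 in the 6 Tcell high livers (median 183). Every Tcell low liver lay below every Tcell high liver, yet the gene did not pass (log2 fold change -0.62, SE 0.21, adjusted p = 0.0659). Slc25a16, linked to coenzyme A in mitochondria, had 190.2, 295, 302 and 213 scaled counts in Tcell low 1, 2, 3 and 4, against 100.03 to 222 in the 6 Tcell high livers and a median of 154 (log2 fold change 0.73, SE 0.25, adjusted p = 0.0702). Here Tcell low 2 and 3 were above all Tcell high livers and Tcell low 1 and 4 overlapped them. Slc25a51, the NAD carrier, had 471, 548, 178 and 717 scaled counts in Tcell low 1, 2, 3 and 4, against 390.2 to 751 in the 6 Tcell high livers and a median of 691 (log2 fold change -0.53, SE 0.34, adjusted p = 0.275). Tcell low 3 was the lowest library, and Tcell low 1, 2 and 4 lay within the Tcell high range.

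Slc25a33 and Slc25a32 were chosen after their values were seen. Slc25a33, a carrier of pyrimidine nucleotides, had 50.7, 210.2, 63.5 and 195 scaled counts in Tcell low 1, 2, 3 and 4, against 34.5 to 53.9 in the 6 Tcell high livers (median 47.1). Tcell low 2 and 4 stood apart from the rest and Tcell low 1 lay within the Tcell high range (log2 fold change 1.23, SE 0.39, adjusted p = 0.0544). Slc25a32, which carries folate and FAD, had 23.7, 445, 71.6 and 143 scaled counts in Tcell low 1, 2, 3 and 4, against 19.7 to 96.1 in the 6 Tcell high livers and a median of 36.1 (log2 fold change 1.41, SE 0.65, adjusted p = 0.143). Tcell low 2 was the highest library and Tcell low 1 was below the Tcell high median. Slc25a26, which carries S-adenosylmethionine, gave -0.82 and Slc25a42, a coenzyme A carrier, gave -1.94, both as log2 fold changes.

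**Figure D3:**
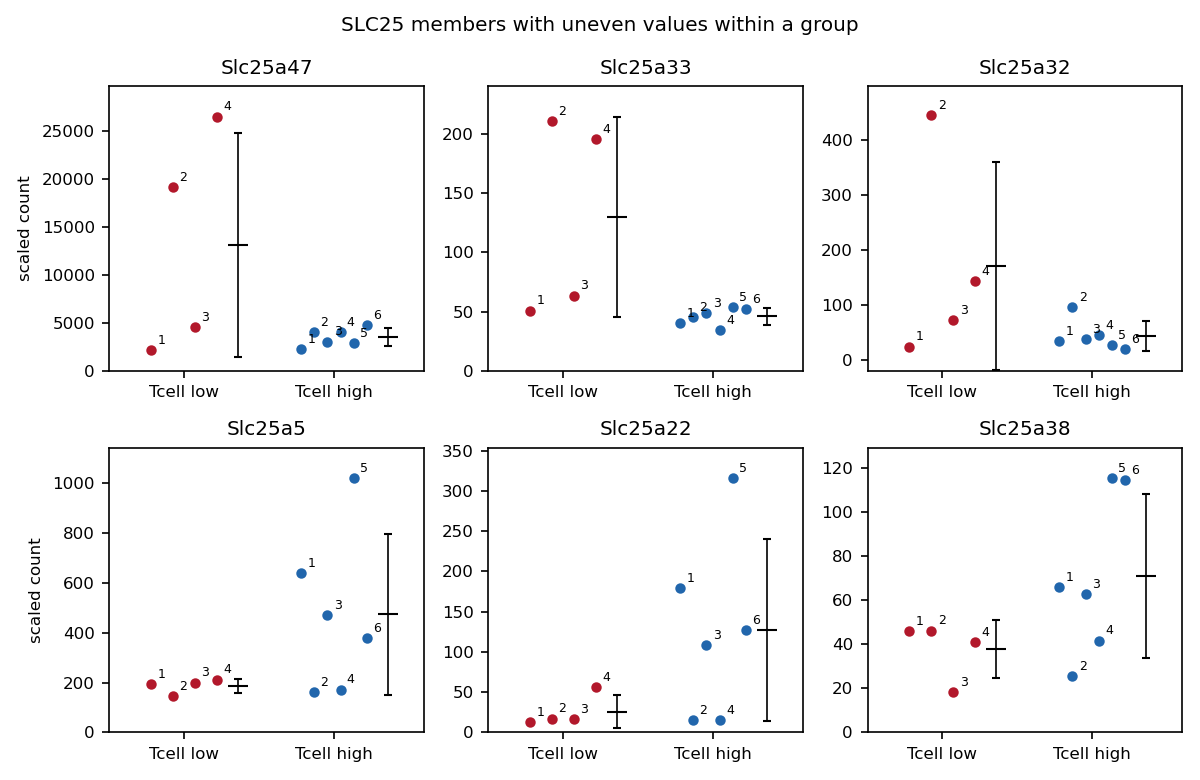
Scaled count in each library of 6 members that did not pass the test, with Tcell low (red) left of Tcell high (blue), library numbers beside the points, and the mean ± SD as a bar. In the upper row Tcell low 2 and 4 are the highest libraries, at 19140 and 26488 for Slc25a47, and in the lower row Tcell high 1, 3, 5 and 6 are the highest, at 379 to 1021 for Slc25a5.

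Iron and glutathione carriers serve haem and iron-sulphur cluster synthesis and the redox balance of the matrix. None of the 4 members passed by limma (0 at an unadjusted p below 0.05), and the class median was 0.17. Slc25a39, which imports glutathione, had 3856, 6674, 4347 and 4755 scaled counts in Tcell low 1, 2, 3 and 4, against 3607 to 5287 in the 6 Tcell high livers and a median of 4511 (log2 fold change 0.12, SE 0.20, adjusted p = 0.686). Slc25a37, mitoferrin 1, is the iron carrier of erythroid cells, and 29.4% of its 3′ words occur in another gene, so its value is uncertain. It had 478, 326, 386 and 316 scaled counts in Tcell low 1, 2, 3 and 4, against 293 to 446 in the 6 Tcell high livers and a median of 336 (log2 fold change 0.11, SE 0.20, adjusted p = 0.708), with a sign that turned (-0.00522) with equal totals. Slc25a28, mitoferrin 2, the form of other tissues, had 34, 249.6, 124 and 131 scaled counts in Tcell low 1, 2, 3 and 4, against 33 to 124 in the 6 Tcell high livers and a median of 68.6 (log2 fold change 0.69, SE 0.48, adjusted p = 0.312). In each of these genes the groups overlapped. Slc25a40, a paralogue of Slc25a39, gave 0.21 (SE 0.49).

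Of the carriers related to uncoupling proteins, Slc25a14 could be tested. It had 18.1, 6.11, 25.2 and 8.26 scaled counts in Tcell low 1, 2, 3 and 4, against 14.8 to 27.9 in the 6 Tcell high livers and a median of 17.9 (log2 fold change -0.53, SE 0.43, adjusted p = 0.396). Tcell low 2 and 4 lay below all Tcell high livers, and Tcell low 1 and 3 within their range.

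The 11 members below the mean for the test had at most 16.3 scaled counts in any library. They were the testis ADP/ATP carrier Slc25a31 and the ATP-Mg carrier Slc25a41, the amino acid carriers Slc25a2 and Slc25a18, the pyrimidine nucleotide carrier Slc25a36, the uncoupling protein relatives Slc25a27 and Slc25a30, and Slc25a35, Slc25a43, Slc25a53 and Slc25a54. The highest mean among them, 5.59 scaled counts over all libraries, was that of Slc25a36, of whose 3′ words 20.5% occur in another gene. Values this low do not show whether the groups differ.

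**Figure D4:**
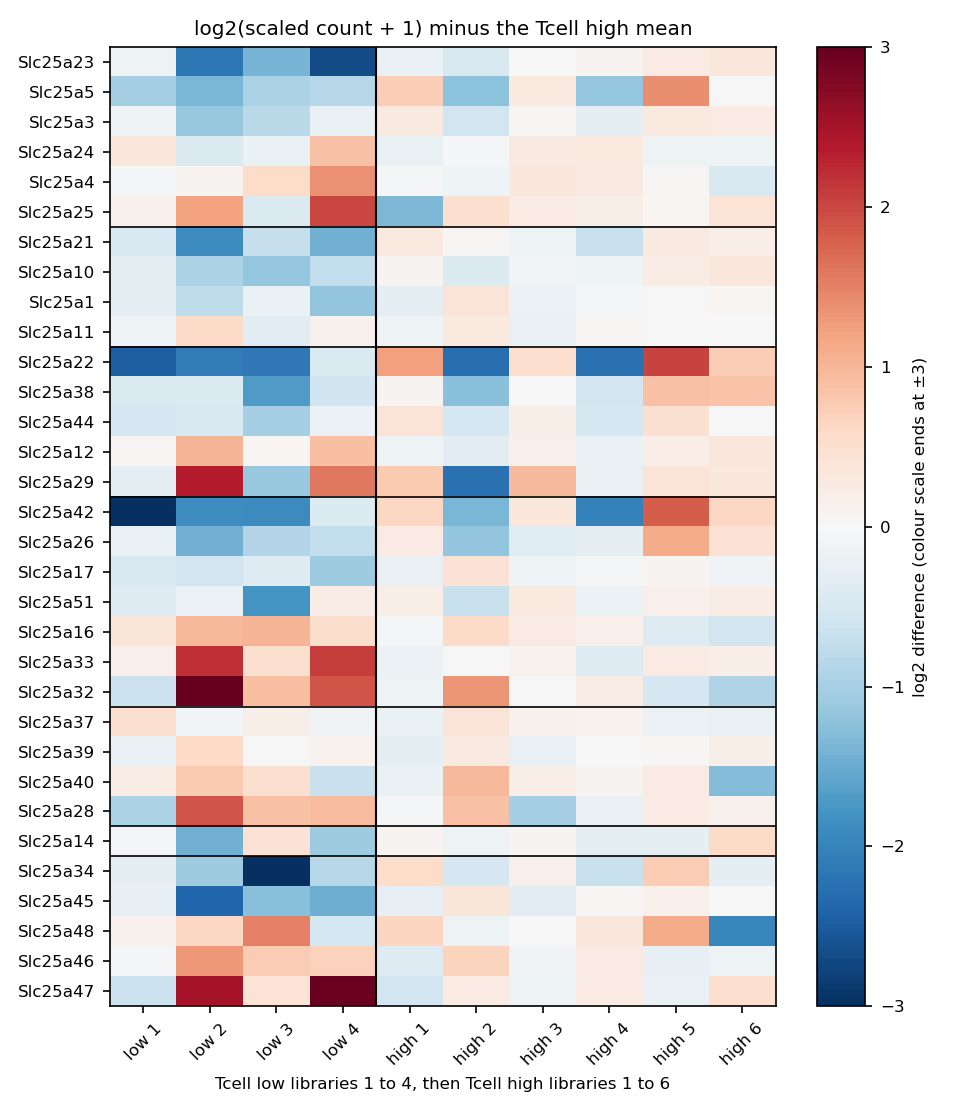
Log2(scaled count + 1) of the tested members named here in each library, as the difference from the Tcell high mean of the gene, with Tcell low libraries left of the vertical line and classes separated by horizontal lines. Red is above and blue below the Tcell high mean, and Slc25a47 and Slc25a33 are dark red in Tcell low 2 and 4, while Slc25a23 and Slc25a45 are blue in Tcell low 2, 3 and 4 and pale in Tcell low 1.

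Genes on the opposite strand overlap Slc25a23, Slc25a10 and Slc25a21, and the strand used in counting is not stated. The 4 calls each depended on single libraries. Each of them was lost without Tcell low 2, 3 or 4 and without Tcell high 1, 3, 5 or 6. Over those 7 fits the adjusted p of limma was 0.0513 to 0.0965 for Slc25a23, 0.051 to 0.0884 for Slc25a45, 0.0717 to 0.117 for Slc25a10 and 0.058 to 0.142 for Slc25a21. Slc25a10 was also lost without Tcell high 4 (adjusted p = 0.0509). Without the variance trend Slc25a10 (adjusted p = 0.0579) and Slc25a21 (0.0508) were not called, and Slc25a21 was not called with a filter at a mean of 1 (0.0535) or with no filter (0.068). Without Tcell low 1 the adjusted p was 0.0003 for Slc25a23, 0.000966 for Slc25a45, 0.0049 for Slc25a10 and 0.0101 for Slc25a21. Without that library 6 members were higher and 8 lower, and 3622 genes were called in all. Slc25a33, Slc25a16, Slc25a46, Slc25a47, Slc25a32 and Slc25a28 were then higher, and Slc25a1, Slc25a3, Slc25a17 and Slc25a34 joined the lower ones. Without Tcell high 2 the called members were 2 higher, Slc25a16 and Slc25a46, and 6 lower, Slc25a5 and Slc25a22 being added. In that fit 2271 of all 11110 genes were called, so the gain is not read as particular to the carriers.

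**Figure D5:**
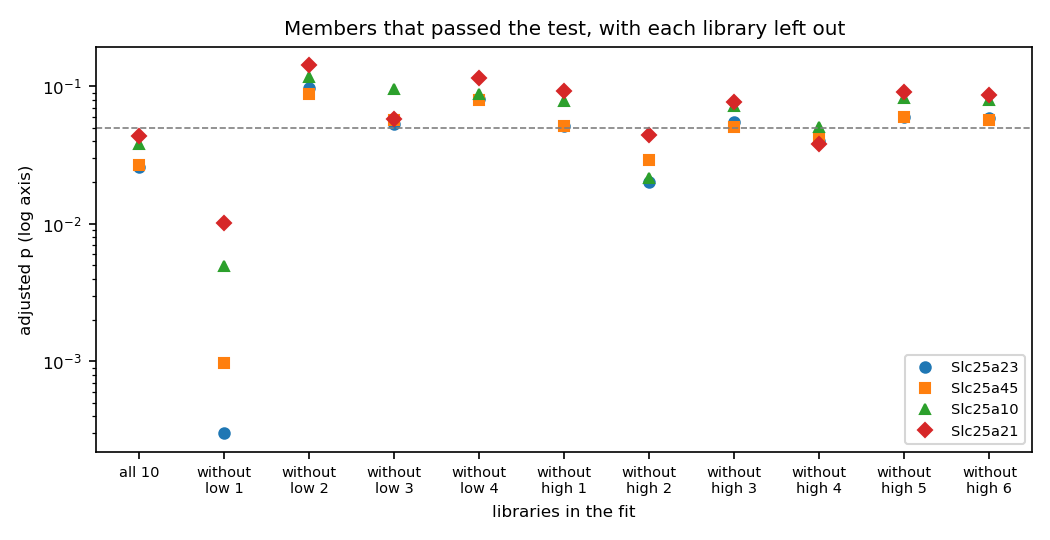
Adjusted p of limma, on a log axis, for the 4 members that passed the test, with all 10 libraries and with each library left out in turn. The dashed line is the threshold of 0.05, and Slc25a23 runs from 0.0003 without Tcell low 1 to 0.0965 without Tcell low 2.

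Against Tcell high 2 and 4 alone, without the 4 Tcell high libraries high in Hbb-bs, 0 members and 0 of all genes passed by limma (2 members and 999 genes at an unadjusted p below 0.05). The log2 fold changes were then -1.40 for Slc25a23, -1.53 for Slc25a45, -0.51 for Slc25a10 and -0.81 for Slc25a21. For Slc25a5, Slc25a22 and Slc25a38 the sign turned, to 0.16, 0.47 and 0.12. These genes were highest in the 4 libraries left out, so the turn restates the values given above. Slc25a42 and Slc25a26 kept a negative sign, at -0.24 and -0.10. Of the 33 tested members 26 had the same sign as with all libraries. Both fits use the same Tcell low libraries and Tcell high 2 and 4, so part of this agreement is built in. Some markers of blood cells moved with the groups. The 7 neutrophil markers summed to 639 to 1765 scaled counts in Tcell low and 39.8 to 208 in Tcell high livers, with 4 of 4 tested genes higher, and Ly6g was listed above 0 in 2 libraries, Tcell low 1 and 3. Of 10 erythroid markers 9 are in the table used here, and they summed to 43194 to 98274 in Tcell low and 19763 to 51958 in Tcell high livers, with 2 of 8 tested genes higher. Most of this sum was Hba-a2, with means of 61299 in Tcell low and 26940 in Tcell high livers. Hbb-bs and Bpgm had negative log2 fold changes, -2.80 and -0.45, and were not called (adjusted p of limma 0.208 and 0.573). The other tested erythroid markers had positive ones. Of the other markers, 1 of 6 hepatocyte genes (Apoa1) and 2 of 5 sinusoidal endothelial genes (Stab2 and Lyve1) were higher. The endothelial genes did not move together. Clec4g and Kdr had negative log2 fold changes, -0.74 and -0.63, and were not called (adjusted p of limma 0.0853 and 0.0687). Pecam1 gave 0.28 and was not called. None of 6 Kupffer cell, 5 stellate cell, 3 cholangiocyte, 1 T and NK cell and 1 B cell genes tested was called by limma (0, 1, 1, 0 and 0 at an unadjusted p below 0.05). The part of these cells in the results on the carriers was not tested.

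Genes that work with the carriers or around them were taken in 5 lists, in which 7 of 53 tested genes fell and 1 rose. This is 15.1%, near the 12.8% of all genes, and nothing particular to these lists is read from it. Leaving out Tcell low 2 left 0 of these lists' genes called, and leaving out Tcell low 1 gave 25. In the list of enzymes of carboxylate and amino acid shuttles, 4 of 10 fell and 0 rose (list median -0.60). This list also holds the glycerol phosphate dehydrogenases Gpd1 and Gpd2, whose substrates are not moved by the carriers reported here. Me1, the malic enzyme that makes cytosolic NADPH from malate, had 1006, 261, 333 and 138 scaled counts in Tcell low 1, 2, 3 and 4, against 934 to 2639 in the 6 Tcell high livers and a median of 1683 (log2 fold change -2.26, SE 0.44, adjusted p = 0.0143). The groups overlapped at Tcell low 1. Gpd2, the mitochondrial glycerol phosphate dehydrogenase, had 368, 170.0, 302 and 317 scaled counts in Tcell low 1, 2, 3 and 4, against 475 to 586 in the 6 Tcell high livers and a median of 497 (log2 fold change -0.87, SE 0.22, adjusted p = 0.0279). All Tcell low livers lay below all Tcell high livers. Gls2, the liver glutaminase, gave -1.29 (SE 0.37, adjusted p = 0.04). It had 1498, 757, 494 and 1144 scaled counts in Tcell low 1, 2, 3 and 4. Tcell high 2 and 4, at 1109 and 1441, lay within that range, and Tcell high 1, 3, 5 and 6 had 2865, 2613, 3563 and 2591. Acly, which splits the citrate exported by Slc25a1 and was named after its value was seen, gave -1.41 (SE 0.41, adjusted p = 0.0435).

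In the list of iron, haem and cofactor enzymes 2 of 10 fell and 1 rose (list median -0.37). Gclc, the first enzyme of glutathione synthesis, gave -1.62, SE 0.33 (adjusted p = 0.017), and Abcb10, a transporter that partners mitoferrin 1 in erythroid cells, gave -1.13, SE 0.32 (adjusted p = 0.0417). For Abcb10, Tcell high 2 and 4 had 86.7 and 73.0 scaled counts, below the 87.5 of Tcell low 1, while Tcell high 1, 3, 5 and 6 had 146, 138, 151 and 116. Mat1a, which makes the S-adenosylmethionine that Slc25a26 carries, rose (log2 fold change 1.24, SE 0.29, adjusted p = 0.0237). Among 9 tested mitochondrial carriers outside the naming rule 1 fell and 0 rose (list median 0.02). This was Sfxn5, a sideroflexin, with 144, 54.2, 44.2 and 40.5 scaled counts in Tcell low 1, 2, 3 and 4, against 94.8 to 228 in the 6 Tcell high livers and a median of 213 (log2 fold change -1.55, SE 0.36, adjusted p = 0.0236). Tcell low 1 lay within the Tcell high range.

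Of 12 tested genes for the import of carrier proteins 0 passed by limma, with a median of -0.49. Timm22, the channel that inserts carriers into the inner membrane, had 1086, 209, 419.8 and 145 scaled counts in Tcell low 1, 2, 3 and 4, against 398 to 716 in the 6 Tcell high livers and a median of 548 (log2 fold change -0.65, SE 0.44, adjusted p = 0.311). Its highest value was that of Tcell low 1 and its lowest that of Tcell low 4. For mitochondrial content and biogenesis 0 of 12 passed, with a median of -0.07. Hspd1, the matrix chaperonin, had 4238 ± 524 scaled counts in Tcell low and 5251 ± 852 in Tcell high livers (SD, n = 4 and 6), or -0.30 as log2 fold change (SE 0.18, adjusted p = 0.251). At an unadjusted p below 0.05 by limma there were 7 import genes and 3 content genes of 12 each, and 3830 of all 11110 genes. Ppargc1a, a coactivator of mitochondrial genes named after its values were seen, had 106, 1257, 234 and 1638 scaled counts in Tcell low 1, 2, 3 and 4, against 121 to 305 in the 6 Tcell high livers and a median of 244 (log2 fold change 1.18, SE 0.64, adjusted p = 0.206). Tcell low 2 and 4, the libraries highest in Slc25a47 and Slc25a33, were also the highest here.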

How the data were processed

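Liver RNA of 10 libraries was sequenced from the 3′ end (QuantSeq FWD), per the labels' protocols. STAR, DESeq2 and the build mm10 are named in the submitters' processing notes, without versions. Neither the read counter nor the annotation is given in the sources. In the deposited table each value is a signal per gene and library, gene counts that the authors scaled. Between 4.16% and 6.52% of the values above 0 were whole multiples of the library's step (within 0.01). In Tcell low 1, values of 0.774 (Slc25a18), 0.881 (Slc25a53) and 0.898 (Slc25a43) all occur. Whole reads divided by 1 factor per library would not give these values, and how they were scaled is not known here. Whole reads were therefore not recovered, the depth is unknown and no counting interval is given. An exact 0 may be a failed estimate.

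Groups and replicate numbers come from the titles, and columns were matched by the submitters' sample description. limma 3.58.1 in R 4.3.3 was fitted to log2(value + 1) of 11110 genes with a mean of at least 10, with a variance trend (13.1 degrees of freedom), and tested on simulated data. The added 1 shrinks the fold changes of low genes, while a single library listed at 0 can enlarge them. For Slc25a34 the log2 fold change was -1.78, and -0.74 without Tcell low 3. Some family symbols are not reported here. Members, substrate classes, partner lists and markers were chosen with earlier results of these data known. Values per library are given for called members, up to 3 uncalled members of highest mean per class and members with a library far from its group; in partner lists up to 3 called genes of lowest adjusted p are named, or the gene of highest mean. Sharing of a 3′ end is the percentage of 50-base words, from the final 400 bases of each GENCODE vM21 transcript, that another gene also holds (stated from 20%, and for Slc25a5). Alternatives covered the pseudocount, filter, scaling, limma options, threshold, a replicate block and the omission of single libraries. Replicate numbers 1 to 4 occur in both groups, and the labels do not say that a number marks a shared animal or batch. Plots used matplotlib 3.10.9 (Python 3.11.15).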

Additional observations from a re-analysis of the deposited data

Results flagged for a closer look

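In 4 of 66 groups of values (33 members in 2 groups) 1 library lay far from the others, by the gap to its nearest neighbour over the range of the group (Dixon's 95% limit). Chance gives this in about 1 in 20 groups. Slc25a22, the glutamate carrier, had 56.3 scaled counts in Tcell low 4, against 12.9 to 17.2 in the other Tcell low livers. Slc25a25, an ATP-Mg carrier, had 257 in Tcell high 1, against 684 to 924 in the other Tcell high livers. Slc25a32, the folate and FAD carrier, had 96.1 in Tcell high 2, against 19.7 to 44.5 in the others of its group. Slc25a14, related to uncoupling proteins, had 27.9 in Tcell high 6, against 14.8 to 19.5 in the others. None of these 4 genes passed the test with all libraries.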

How the results depend on the processing

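The 4 lower members became 2 in limma without trend, 0 in a fit with the replicate block, 0 without the block on the same 8 libraries, 0 against Tcell high 2 and 4 only and 0 at an adjusted p below 0.01. Leaving out 1 library in turn gave 0 to 8 lower and 0 to 6 higher members. For all genes the 1420 calls became 852, 231, 13, 0 and 54 under those alternatives, and 108 to 3622 with a library left out. The 8 partner genes became 1 with the block, 0 without it on the same libraries, 0 against Tcell high 2 and 4, 0 at 0.01, 4 with no filter, and 0 to 25 with a library left out. The difference in scaled total, 637336, was 731845 against Tcell high 2 and 4 only (exact p = 0.333) and 496571 to 895437 with a library left out (exact p 0.0119 to 0.0873). The fits on 8 libraries and against Tcell high 2 and 4 have fewer samples; other causes were not tested.

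Same-numbered libraries had deviations correlated at 0.104, 0.211, -0.0988 and -0.151, so the numbers were not taken to pair them, and among the Tcell low libraries 1, number 2, correlated best with its own number. On the same 8 libraries limma called 231 genes with the replicate block and 13 without it. At an unadjusted p below 0.05 these counts were 2675 and 2485. What the numbers mark was not tested.

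Signs turned as follows, all in members that did not pass. Against Tcell high 2 and 4 the log2 fold change was 0.16 for Slc25a5, 0.47 for Slc25a22, 0.12 for Slc25a38, -0.10 for Slc25a11, -0.13 for Slc25a37, -0.0195 for Slc25a39 and -0.32 for Slc25a40. Equal totals gave -0.0558 for Slc25a11 and -0.00522 for Slc25a37. Slc25a40 was at -0.0552 with and without the block on 8 libraries. With a library left out Slc25a11 ran from -0.11 to 0.19, Slc25a24 from -0.0908 to 0.34, Slc25a37 from -0.00657 to 0.19, Slc25a39 from -0.0358 to 0.23 and Slc25a40 from -0.0538 to 0.50. Equal totals added Slc25a17 to the lower members (adjusted p = 0.045). Depth is unknown, so the counting error of members with few scaled counts cannot be given.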

Other observations

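Genes around the carriers shared the uneven values of single libraries, and were chosen after their values were seen. Got1, the cytosolic aspartate aminotransferase of the malate-aspartate shuttle, had 1356, 12564, 2034 and 18314 scaled counts in Tcell low 1, 2, 3 and 4, against 1359 to 4108 in the 6 Tcell high livers (median 2570.2). Tcell low 2 and 4 were the highest libraries, as for Slc25a47, Slc25a33 and Slc25a25, and the gene did not pass the test of limma (log2 fold change 1.09, SE 0.64, adjusted p = 0.238). Cs, citrate synthase, had 169, 54.2, 94.9 and 117 scaled counts in Tcell low 1, 2, 3 and 4, against 399, 112, 324, 139, 452 and 377 in Tcell high 1, 2, 3, 4, 5 and 6. Tcell high 1, 3, 5 and 6 were the highest libraries, as for Slc25a5, Slc25a22 and Slc25a38 (log2 fold change -1.39, SE 0.43, adjusted p = 0.0505). Hbb-bs was also high in those 4 Tcell high libraries, while Hba-a2, with more scaled counts in every library, was highest of that group in Tcell high 2. The part of blood in these values was not tested.

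Slc25a29, a carrier of basic amino acids, and Slc25a47 lie head to head on chromosome 12, 162 bases apart. Slc25a29 had 6.54, 44.9, 3.1 and 26.2 scaled counts in Tcell low 1, 2, 3 and 4, against 0.896 to 16.7 in the 6 Tcell high livers and a median of 10.5 (log2 fold change 0.64, SE 0.78, adjusted p = 0.584). Its highest libraries were Tcell low 2 and 4, as for Slc25a47, while Tcell low 3 was low for Slc25a29. Those libraries were also the highest for Slc25a33 on chromosome 4 and Slc25a25 on chromosome 2, so this is not particular to neighbours. The values of Slc25a29 are given outside the rule for values per library.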
